A study of Mus musculus with 6 samples.

Results

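FGF and GDNF/RET signaling genes were followed in explants of the early mouse ureter after activation of WNT signaling with LiCl. The group was a list of 47 genes for FGF ligands, FGF homologous factors, FGF receptors and their modulators, GDNF family ligands, RET and its GFRA co-receptors, and the feedback inhibitors and transcription factors (TFs) that respond to the kinase ERK. Of these, 39 had 10 or more counts in at least 3 of the 6 samples and were kept, among 56748 gene identifiers in the deposited table, and the same 39 were among the 18188 genes that entered the test. *Klb* was the only gene that met the minimum through the LiCl samples alone.

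Ureters of wildtype NMRI embryos were dissected at E12.5 and cultured for 18 h on transwell membranes in a medium whose labelled components include no serum, either with 15 mM LiCl or with water as control. Both groups thus shared the strain, the stage, the genotype, the medium and the culture period, and each consisted of 3 samples, for which the labels do not give the number of pooled ureters or the sex of the embryos. LiCl inhibits the kinase GSK3B and thereby stabilizes CTNNB1, but lithium has further targets, and no control with a different salt was included. Poly-A RNA of the whole explant was sequenced, with ureteric epithelium (UE), ureteric mesenchyme (UM) and the nerves and vessels attached to them. Transcripts used as markers of renal stroma, nephron progenitors and skeletal muscle were present as well. Fewer cells of a type and less RNA per cell thus cannot be told apart.

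FGFs are secreted proteins that bind, together with heparan sulfate, to receptor tyrosine kinases of the FGFR family. GDNF and its relatives neurturin (*Nrtn*), artemin (*Artn*) and persephin bind to a GFRA co-receptor and thereby activate the receptor tyrosine kinase RET. Both receptor systems feed into the RAS-ERK cascade, whose activity is read out by transcription of *Spry*, *Spred* and *Dusp* genes, encoding inhibitors of the same cascade, and of the ETS-type TF genes *Etv1*, *Etv4* and *Etv5*. In the urinary tract, GDNF from the metanephric mesenchyme and RET in the tip of the ureteric bud drive branching, whereas FGFR2 in the epithelium of the bud supports its growth and branching.

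Total counts lay between 28473436 and 31266945 per sample, with no separation of the groups, so that 1 count corresponded to 0.0322 to 0.0358 CPM, that is counts scaled to the library size with TMM factors. The WNT target gene *Axin2* rose from 71.7 ± 2.67 to 136 ± 2.03 CPM (each SD, n = 3). The ureteric markers *Cdh1*, *Krt8*, *Tbx18* and *Foxf1* were expressed in every sample. Of 11 UE markers, 7 (63.6%) had every LiCl sample below every control and 1 (*Epcam*, 9.09%) every LiCl sample above. Over all tested genes these shares were 27.8% and 26.4%. The summed level of the 11 UE markers was 1350 to 1663 CPM in the controls and 1027 to 1073 CPM with LiCl. The 9 UM markers summed to 1940 to 2068 CPM in the controls and 1882 to 1963 CPM with LiCl. Among them, *Tbx18*, *Bmp4* and *Sox9* had every LiCl sample below every control (33.3%), and *Foxf1*, *Tbx2* and *Tbx3* every LiCl sample above (33.3%). LiCl replicates 1 and 3 stood apart by skeletal muscle genes, 12 markers of which summed to 34.4 and 75.3 CPM against 4.66 to 7.66 CPM in the other 4 samples, and of which *Pax7* had 0 counts in every control.

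At an adjusted p under 0.05 (edgeR's quasi-likelihood test, Benjamini-Hochberg over all genes tested), 2 of the 39 genes rose (5.13%) and 14 fell (35.9%) after LiCl. Across all tested genes the same rule called 21.1% higher and 22.4% lower. The 2 genes that rose were *Fgf12* and *Etv4*. Those that fell were the ligand genes *Fgf2*, *Fgf7*, *Fgf10*, *Nrtn* and *Artn*, the receptor genes *Fgfr1*, *Fgfr2*, *Fgfr3*, *Ret* and *Gfra2*, the modulator gene *Flrt2*, the feedback gene *Spry4*, and the TF genes *Etv1* and *Etv5*. The median log2 fold change of the 39 genes was -0.19, that of all tested genes -0.01. In 16 genes (41.0%) every LiCl sample lay below every control, and in 5 (12.8%) every LiCl sample lay above, compared with 27.8% and 26.4% of all tested genes. With the fold change minimum of the study in addition, a log2 fold change above 1 or below -1, 2 genes were called lower (*Fgf2* and *Fgf7*) and 0 higher, against 4.59% and 2.74% of all tested genes, or 7.33% in either direction. Without control replicate 3 the number of genes lower was 9, in a fit that called 3155 of 18520 genes lower. The fit without LiCl replicates 1 and 3 holds 1 LiCl sample and takes its spread from the controls. Its calls are not counted here, since they did not fall on the same genes throughout.

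**Figure D1:**
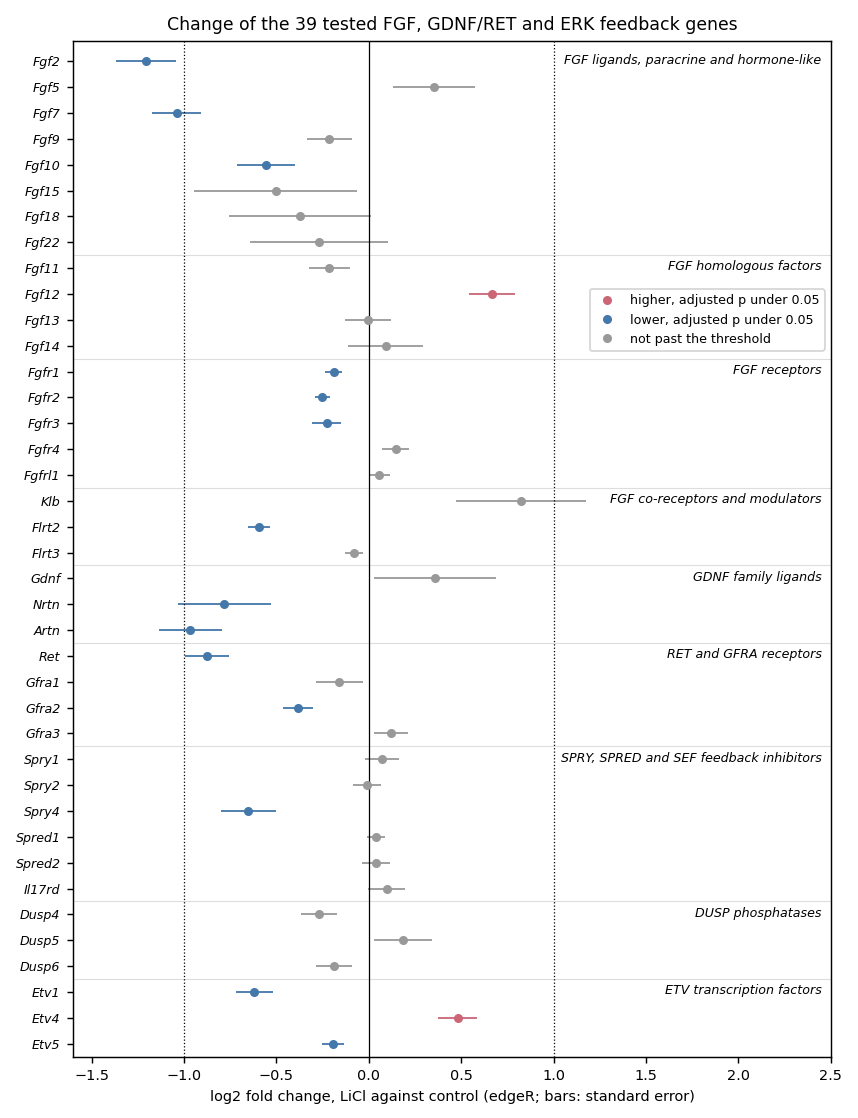
Log2 fold change of LiCl against control (horizontal axis) for each of the 39 tested genes, grouped by role. Points are edgeR estimates, bars their standard errors, colors mark genes past an adjusted p of 0.05, and dotted lines stand at 1 and -1; only *Fgf2* and *Fgf7* lie past a dotted line with such an adjusted p.

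Of 16 FGF ligand genes, 8 were kept. *Fgf10* and *Fgf7*, encoding mesenchymal ligands of the epithelial isoform of FGFR2, had the highest levels per gene length in the controls, with 2.43 ± 0.40 and 2.31 ± 0.16 FPKM, the deposited fragment counts per gene length, scaled between libraries by size factors (each SD, n = 3), and their ranges overlapped. *Fgf9* followed with 1.45 ± 0.04 FPKM and *Fgf2* with 0.86 ± 0.15 FPKM, both without overlap with the gene above them. *Fgf18*, *Fgf5*, *Fgf22* and *Fgf15* had means from 0.36 down to 0.13 FPKM. All FGF ligand genes were thus transcripts of low level, far below the main receptor gene, *Fgfr2*.

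*Fgf7* (ENSMUSG00000027208) had 7.89, 7.88 and 6.94 CPM in the controls and 3.99, 3.18 and 3.86 CPM with LiCl. The groups were clearly separated and the spread within each was small. The fall was 2.06-fold, and the log2 fold change -1.04 ± 0.13 (standard error, edgeR adjusted p = 0.00028). *Fgf2* (ENSMUSG00000037225), encoding a basic FGF without a signal peptide, had 7.09, 5.34 and 5.22 CPM in the controls and 2.44, 2.72 and 2.48 CPM with LiCl. Control replicate 1 was the highest, and without it the log2 fold change moved from -1.21 to -1.05, still with an edgeR adjusted p of 0.0012. The genes cross a log2 fold change of -1 by little: *Fgf7* had -0.94 without LiCl replicate 2, which left *Fgf2* as the only gene past both thresholds.

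*Fgf10* (ENSMUSG00000021732) had 13.2, 9.40 and 11.3 CPM in the controls and 9.16, 6.69 and 7.16 CPM with LiCl. LiCl replicate 1 lay just below control replicate 2, so the groups were separated by a narrow gap. The log2 fold change was -0.56 (standard error 0.16, edgeR adjusted p = 0.019). This call was lost without control replicate 1 or 3 or without LiCl replicate 2 or 3, with adjusted p-values up to 0.064. *Fgf9*, encoding a ligand expressed in epithelia and mesothelia of many organs, had 7.09, 6.69 and 6.65 CPM in the controls and 5.08, 6.37 and 6.20 CPM with LiCl, and did not pass the test (log2 fold change -0.21, edgeR adjusted p = 0.19). *Fgf7* and *Fgf9* changed places in the order of levels, since *Fgf9* had the higher mean with LiCl, 1.27 ± 0.15 against 1.13 ± 0.14 FPKM (each SD, n = 3), with overlapping ranges. *Fgf5* had 0.90, 0.87 and 0.91 CPM in the controls and 1.22, 1.04 and 1.17 CPM with LiCl. Its groups were separate, but at 26 to 38 counts per sample the adjusted p was 0.23 (edgeR).

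The remaining 8 FGF ligand genes were not kept. *Fgf1* had 7 to 10 counts, *Fgf17* 4 to 10 and *Fgf3* 5 to 9, close to the limit that *Fgf15*, with 7 to 19 counts, passed. *Fgf4*, *Fgf16*, *Fgf20* and *Fgf21* had 0 to 4 counts. For *Fgf8*, encoding a ligand with known roles in early kidney formation, 0, 1 and 0 reads were counted in the controls and 8, 3 and 4 after LiCl. With every gene of at least 1 count in the edgeR test, *Fgf8* was the only one of these 8 genes with an adjusted p under 0.05 (0.022). DESeq2 gave it an unadjusted p of 0.021 and no adjusted p. At these counts its fold change is not given.

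The RefSeq promoters of the 5 ligand genes that fell are shown because these genes moved in 1 direction. Each line gives the 250 bases before the annotated start in GRCm38.p6, 5′ to 3′ on the strand of the gene, and capitals mark CTTTG or its reverse complement CAAAG, the core of the TCF/LEF site, through which CTNNB1 acts on transcription. The counts were made on the later build GRCm39.
Fgf2 (chr3:37348403-37348652, strand +): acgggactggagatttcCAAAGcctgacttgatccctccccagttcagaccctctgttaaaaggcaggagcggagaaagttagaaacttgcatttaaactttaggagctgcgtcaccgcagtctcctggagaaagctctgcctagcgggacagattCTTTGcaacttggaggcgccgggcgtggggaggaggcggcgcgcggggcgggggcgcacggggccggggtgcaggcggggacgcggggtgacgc
Fgf7 (chr2:126034408-126034657, strand +): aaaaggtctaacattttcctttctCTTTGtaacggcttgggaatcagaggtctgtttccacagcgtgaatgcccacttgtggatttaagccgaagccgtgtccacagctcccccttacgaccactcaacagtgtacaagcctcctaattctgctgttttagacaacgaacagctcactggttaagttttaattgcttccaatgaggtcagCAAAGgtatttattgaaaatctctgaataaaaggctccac
Fgf10 (chr13:118714449-118714698, strand +): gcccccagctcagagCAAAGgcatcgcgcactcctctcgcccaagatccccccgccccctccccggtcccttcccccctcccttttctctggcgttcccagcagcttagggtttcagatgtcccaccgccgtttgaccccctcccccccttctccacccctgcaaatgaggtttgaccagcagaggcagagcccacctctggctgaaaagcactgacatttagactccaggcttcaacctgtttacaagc
Artn (chr4:117929764-117930013, strand -): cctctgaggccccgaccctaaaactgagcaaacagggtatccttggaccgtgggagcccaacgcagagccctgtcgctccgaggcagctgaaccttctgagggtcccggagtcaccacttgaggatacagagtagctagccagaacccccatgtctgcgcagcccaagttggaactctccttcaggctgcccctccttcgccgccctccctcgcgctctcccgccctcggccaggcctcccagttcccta
Nrtn (chr17:56757549-56757798, strand -): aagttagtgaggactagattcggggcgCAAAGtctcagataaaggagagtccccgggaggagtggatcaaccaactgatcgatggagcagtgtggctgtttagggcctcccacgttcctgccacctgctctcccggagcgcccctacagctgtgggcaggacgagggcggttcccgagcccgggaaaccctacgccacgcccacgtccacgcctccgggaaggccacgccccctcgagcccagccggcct

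The promoter table held 34 of the 47 genes in 44 promoters. The longer TCF/LEF motif CTTTGAT, searched on both strands, was in 0 of these 44 promoters and in 3.21% of all 32851 promoters of the same length. The short core CTTTG, which is contained in CTTTGAT and was added after the data were seen, was in 21 of the 44, against 48.6% of all promoters. The ETS motif CCGGAAG, also searched on both strands, was in 1 of the 44 (*Fgfrl1*) and in 6.91% of all. In the 5 printed promoters, *Fgf2* and *Fgf7* each held 2 matches to the core, *Fgf10* and *Nrtn* 1 each, and *Artn* 0. The share of G and C was 43.6% in the *Fgf7* promoter and 61.2% to 64.8% in the other 4, with a median of 52.4% over all promoters.

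The FGF homologous factors FGF11 to FGF14 are intracellular proteins that bind voltage-gated sodium channels and do not act through FGFRs in the classical way. *Fgf11* had the highest level of the 4 genes, with 5.89 ± 0.21 FPKM in the controls, followed by *Fgf13* with 2.54 ± 0.32 FPKM (each SD, n = 3). *Fgf12* (ENSMUSG00000022523) had 3.82, 3.76 and 4.43 CPM in the controls and 6.53, 6.04 and 6.52 CPM with LiCl. Every LiCl sample was thus higher by a wide margin. The log2 fold change was 0.67 ± 0.12 (standard error, edgeR adjusted p = 0.0022). With LiCl replicate 2 as the only LiCl sample, that is without both samples with skeletal muscle transcripts, the estimate was 0.60 and the adjusted p 0.063, with the spread taken from the controls. *Fgf11*, *Fgf13* and *Fgf14* overlapped between the groups, with log2 fold changes of -0.21, 0.00 and 0.09 and no adjusted p under 0.05; *Fgf11* passed without LiCl replicate 1. The *Fgf12*/*Fgf13* ratio of FPKM was 0.22 to 0.28 in the controls and 0.37 to 0.44 with LiCl.

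All 4 kinase receptor genes were expressed. *Fgfr2* was the most abundant of the whole group, with 53.3 ± 0.80 FPKM in the controls (SD, n = 3), and made up 59.1% to 61.1% of the summed FPKM of *Fgfr1* to *Fgfr4*. *Fgfr1* made up 23.7% to 25.5%, *Fgfr3* 8.2% to 8.93%, and *Fgfr4* 7.08% to 7.15%. *Fgfr2* (ENSMUSG00000030849) fell from 569, 551 and 547 CPM in the controls to 479.6, 461 and 460.0 CPM with LiCl. This was a 1.19-fold change, and still larger than the spread between replicates (log2 fold change -0.25, standard error 0.04, edgeR adjusted p = 0.0011). *Fgfr1* (ENSMUSG00000031565), the receptor gene typical of mesenchyme, changed in the same direction from 211, 217 and 226 CPM to 193, 187 and 194 CPM, a log2 fold change of -0.19 (edgeR adjusted p = 0.0088), which was lost without control replicate 3 (adjusted p = 0.056).

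*Fgfr3* (ENSMUSG00000054252) had 52.9, 57.4 and 53.3 CPM in the controls and 50.7, 41.3 and 47.6 CPM with LiCl. LiCl replicate 1 came close to the controls. The log2 fold change of -0.23 had an adjusted p of 0.038 with edgeR, but passed in only 7 of 18 alternative settings. It was lost without any single sample other than LiCl replicate 1, with adjusted p-values up to 0.12, and the adjusted p was 0.16 with limma on log2(FPKM + 1) and no filter. *Fgfr4*, a receptor gene also expressed in myoblasts, had 22.6, 22.7 and 22.6 CPM in the controls and 27.3, 22.9 and 24.9 CPM with LiCl, the higher values in the samples with skeletal muscle transcripts; it did not pass (edgeR adjusted p = 0.14), and the part of these transcripts in its level was not tested. Its share among the 4 receptor genes was 8.54% to 9.53% with LiCl. *Fgfrl1*, encoding a receptor without a kinase domain, overlapped between the groups at a log2 fold change of 0.06.

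Among the modulators, *Flrt2* and *Flrt3* encode transmembrane proteins with leucine-rich repeats that bind FGFRs and the guidance receptors of the UNC5 family. *Flrt2* (ENSMUSG00000047414) had 204, 183 and 204 CPM in the controls and 124, 135 and 132 CPM with LiCl. All LiCl samples lay far below the controls. The log2 fold change was -0.60 ± 0.06 (standard error), and its adjusted p of 6.4e-05 with edgeR was the lowest of the 39 genes. *Flrt3* overlapped between the groups, at 107 to 116 CPM in the controls and 104 to 107 CPM with LiCl. As a result, the order of both genes turned: the control means were 25.2 FPKM for *Flrt2* and 22.8 FPKM for *Flrt3* with overlapping ranges, whereas those with LiCl were 16.9 and 21.8 FPKM without overlap. *Klb*, encoding the co-receptor for the hormone-like FGF15 and FGF21, was near the detection limit, with counts of 6, 9 and 9 without and 11, 15 and 15 after LiCl (edgeR adjusted p = 0.088).

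**Figure D2:**
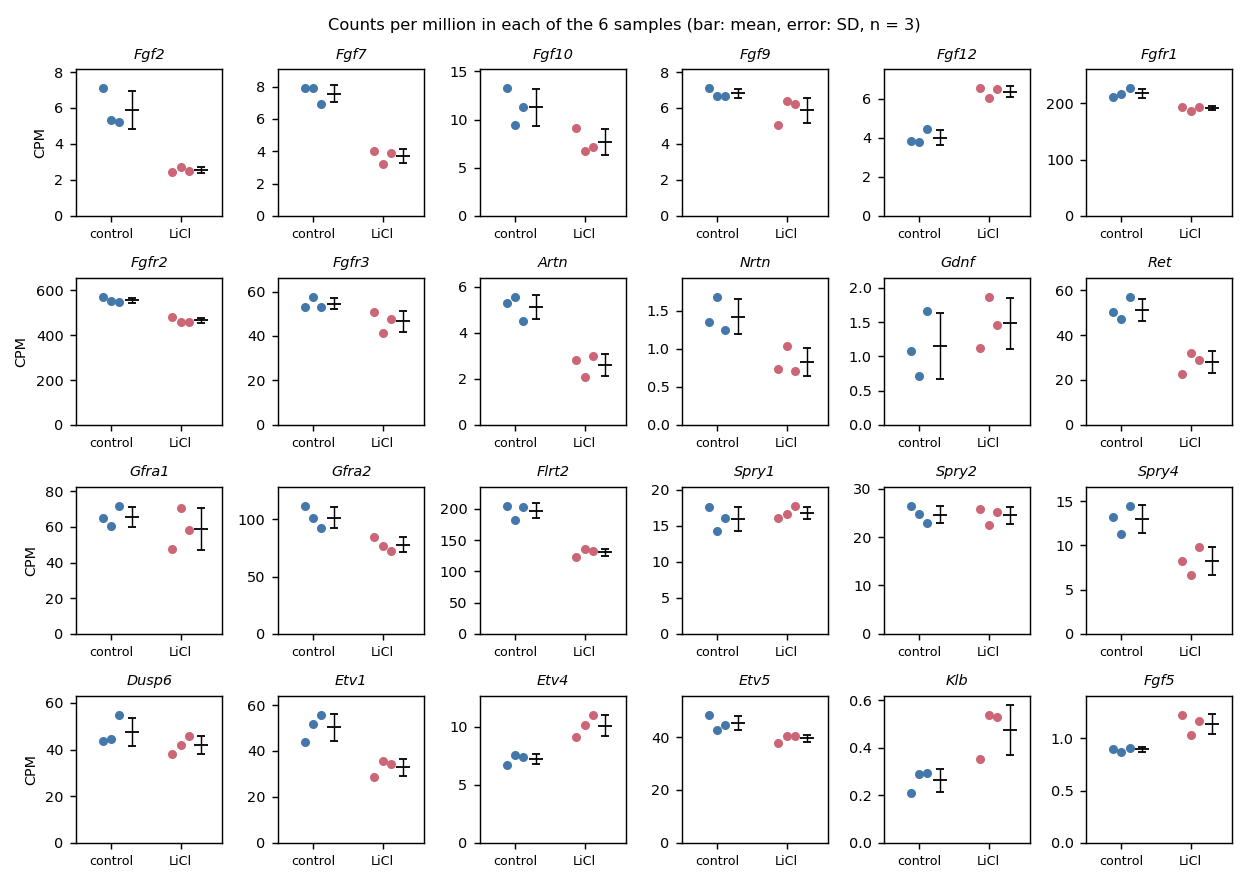
CPM (vertical axis, from 0) of 24 genes in each of the 6 samples, with control samples in blue, LiCl samples in red, and the mean and SD of each group (n = 3) beside the points. *Fgf2*, *Fgf7*, *Ret* and *Flrt2* show separated groups, while *Spry1*, *Spry2*, *Dusp6* and *Gfra1* overlap.

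In the GDNF/RET branch, the receptor gene fell and the gene of its main ligand did not pass the test. *Ret* (ENSMUSG00000030110) had 50.1, 47.1 and 56.8 CPM in the controls and 22.9, 32.2 and 29.0 CPM with LiCl. The highest LiCl sample remained well below the lowest control. The fall was 1.84-fold (log2 fold change -0.88, standard error 0.12, edgeR adjusted p = 0.00038), and the estimate stayed between -0.99 and -0.74 with each sample left out in turn. For *Gdnf* (ENSMUSG00000022144), 31, 22 and 51 reads were counted in the controls and 35, 52 and 41 after LiCl. With 0.31 ± 0.13 FPKM in the controls (SD, n = 3) it was the lowest of the 3 GDNF family ligand genes kept, and its log2 fold change of 0.36 had a standard error of 0.33 (edgeR adjusted p = 0.41). Control replicates 2 and 3 were the lowest and the second highest of all 6 samples.

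*Gfra1*, encoding the co-receptor for GDNF, had 64.9, 60.6 and 71.5 CPM in the controls and 47.4, 70.8 and 58.4 CPM with LiCl. LiCl replicate 1 was low and replicate 2 within the controls, so the groups overlapped (log2 fold change -0.16, edgeR adjusted p = 0.34). Without LiCl replicate 2 the estimate was -0.31 and the adjusted p 0.039. Within each sample, however, *Ret* and *Gfra1* kept a narrow ratio, 0.62, 0.63 and 0.64 in the controls and 0.39, 0.37 and 0.40 after LiCl (from FPKM). *Gfra2* (ENSMUSG00000022103), encoding the co-receptor for neurturin, was the most abundant GFRA gene with 28.4 ± 2.52 FPKM in the controls and 22.0 ± 1.82 FPKM with LiCl (each SD, n = 3). It fell by 0.38 on the log2 scale (standard error 0.08, edgeR adjusted p = 0.0042). *Gfra3*, encoding the co-receptor for artemin, was at 21.8 to 22.7 CPM in the controls and at 21.8 to 27.9 CPM with LiCl and did not pass the test.

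The ligand genes of these co-receptors, *Artn* and *Nrtn*, fell. *Artn* (ENSMUSG00000028539) had 5.28, 5.53 and 4.53 CPM in the controls and 2.80, 2.07 and 2.98 CPM with LiCl. Both groups were well apart, at a log2 fold change of -0.96 (standard error 0.17, edgeR adjusted p = 0.0017), just short of the fold change minimum. In the fits that each left out 1 sample it passed this minimum without LiCl replicate 1, LiCl replicate 3 or control replicate 3, with values down to -1.06. For *Nrtn* (ENSMUSG00000039481), 39, 52 and 38 reads were counted in the controls and 23, 29 and 20 after LiCl. The groups did not overlap, and the log2 fold change was -0.78 with an edgeR adjusted p of 0.032. At this depth the call depended on single samples: it was lost in 5 of the 6 fits that each left out 1 sample, all but the one without LiCl replicate 2, with adjusted p-values up to 0.11.

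RET and GFRA proteins are also found on autonomic neurons and their precursors. Among 12 markers of neural crest, glia and neurons, 3 (25.0%) had every LiCl sample below every control: *Phox2a*, *Stmn2* and *Dbh*. Another 2 (16.7%) had every LiCl sample above. The same held for 27.8% and 26.4% of all tested genes. The summed level of the 12 markers was 328 to 399.7 CPM in the controls and 213, 309 and 253 CPM in LiCl replicates 1 to 3. *Sox10*, which defines neural crest and glia, was present in every sample with 16.5 to 21.0 CPM. Within the LiCl group, *Ret* and *Gfra1* followed the same order as this sum, with replicate 1 lowest and replicate 2 highest. The part of the neural transcripts in the values of *Ret*, *Gfra1* and *Gfra2* was not tested, and neither was that of the UE markers given above. The 5 markers of the ureteric bud tip summed to 29.6 to 33.8 CPM in the controls and 18.1 to 19.6 CPM with LiCl. Of these, *Wnt11* and *Adamts18* fell, and *Sox8* and *Tmem59l* had log2 fold changes of 0.20 and 0.32 and did not pass. The 4 renal stroma markers summed to 480 to 492 CPM in the controls and 340 to 371 CPM with LiCl. Among them, 2 had every LiCl sample below every control and 1 every LiCl sample above. The 10 markers of nephron progenitors and early nephrons summed to 152 to 173 CPM in the controls and 136 to 160 CPM with LiCl. Of these 10, 4 fell (40.0%) and 2 rose (20.0%), against 22.4% and 21.1% of all tested genes. *Cited1*, *Crym*, *Eya1* and *Pax8* fell, by 1.29, 1.31, 0.36 and 0.38 on the log2 scale. *Wt1* and *Lhx1* rose by 0.65 and 0.48. The part of such transcripts in the values of the group was not tested.

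Of the 6 feedback inhibitor genes of the SPRY, SPRED and SEF families, 1 fell (16.7%) and the other 5 did not pass the test. Over all tested genes, 22.4% fell. *Spry4* (ENSMUSG00000024427) had 13.2, 11.3 and 14.4 CPM in the controls and 8.2, 6.69 and 9.85 CPM with LiCl, and fell by 0.65 on the log2 scale (standard error 0.15, edgeR adjusted p = 0.0067). *Spry1*, encoding an antagonist of RET signaling in the ureteric bud, had 17.7, 14.3 and 16.0 CPM in the controls and 16.0, 16.7 and 17.7 CPM with LiCl. *Spry2* had 26.3, 24.8 and 22.8 CPM in the controls and 25.7, 22.5 and 25.2 CPM with LiCl. Both genes overlapped between the groups, with log2 fold changes of 0.07 and -0.01 and standard errors of 0.09 and 0.08. *Spred1*, *Spred2* and *Il17rd*, the gene for SEF, also overlapped, at log2 fold changes of 0.04, 0.04 and 0.10. *Spred1* had the highest level of these 6 genes with 17.7 ± 0.47 FPKM in the controls (SD, n = 3), and *Spry4* the lowest with 2.7 ± 0.32 FPKM.

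None of the 3 *Dusp* genes passed the test with edgeR, against 43.5% of all tested genes. They encode phosphatases of ERK in the cytoplasm (*Dusp6*) or the nucleus (*Dusp4* and *Dusp5*). *Dusp6* had 43.6, 44.6 and 54.6 CPM in the controls and 38.0, 41.8 and 45.6 CPM with LiCl. Control replicate 3 was high, and the groups overlapped (log2 fold change -0.19, standard error 0.10, edgeR adjusted p = 0.15). *Dusp4* lay between 17.4 and 20.0 CPM in the controls and between 13.5 and 17.1 CPM with LiCl, without overlap, and just missed the threshold with an adjusted p of 0.052. It passed in 4 of 18 alternative settings, among them the one without LiCl replicate 2 (adjusted p = 0.029) and the one with the replicate block (adjusted p = 0.041). *Dusp5* overlapped at a log2 fold change of 0.19.

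The 3 ETV genes, TFs of the PEA3 group that act downstream of both FGFRs and RET, all passed the test but in opposite directions. Over all tested genes, 43.5% passed. *Etv4* (ENSMUSG00000017724) rose from 6.74, 7.56 and 7.37 CPM to 9.16, 10.1 and 11.0 CPM, a log2 fold change of 0.48 (standard error 0.11, edgeR adjusted p = 0.0061). *Etv1* (ENSMUSG00000004151) fell from 44.0, 51.6 and 55.5 CPM to 28.6, 35.4 and 34.5 CPM, a log2 fold change of -0.62 (standard error 0.10, edgeR adjusted p = 0.0012). Both kept an adjusted p under 0.05 in all 18 alternative settings. *Etv5* (ENSMUSG00000013089), the most abundant of the 3 with 10.9 ± 0.59 FPKM in the controls (SD, n = 3), had 48.2, 42.8 and 44.7 CPM in the controls and 37.9, 40.2 and 40.4 CPM with LiCl. Its fall was small, with a log2 fold change of -0.20 and an edgeR adjusted p of 0.027, and it passed in 7 of the 18 settings. Of the fits that each left out 1 sample, it passed only in the one without control replicate 2, and the adjusted p reached 0.091. *Etv1* was above *Etv4* in the controls, 3.75 against 2.30 FPKM, and below it with LiCl, 2.47 against 3.26 FPKM, without overlap in either group.

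To compare related genes within each sample, 7 ratios of FPKM were calculated. All 7 separated the LiCl samples from the controls. The *Etv4*/*Etv5* ratio was 0.18, 0.23 and 0.22 in the controls and 0.32, 0.33 and 0.36 with LiCl. The *Etv1*/*Etv4* ratio was 1.52, 1.59 and 1.76 without and 0.73, 0.82 and 0.73 after LiCl. The *Spry4*/*Spry2* ratio lay at 0.20 to 0.28 in the controls and at 0.13 to 0.17 after LiCl. The *Fgf7*/*Fgf9* ratio was 1.49 to 1.69 without and 0.72 to 1.12 after LiCl, and the *Fgf7*/*Fgf10* ratio 0.84 to 1.19 and 0.62 to 0.76. For each ratio the exact permutation test (two-sided) gave p = 0.1, adjusted p = 0.1 over the 7 ratios, the smallest that 3 against 3 samples allow. These pairs were chosen with the results of the single genes known.

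**Figure D3:**
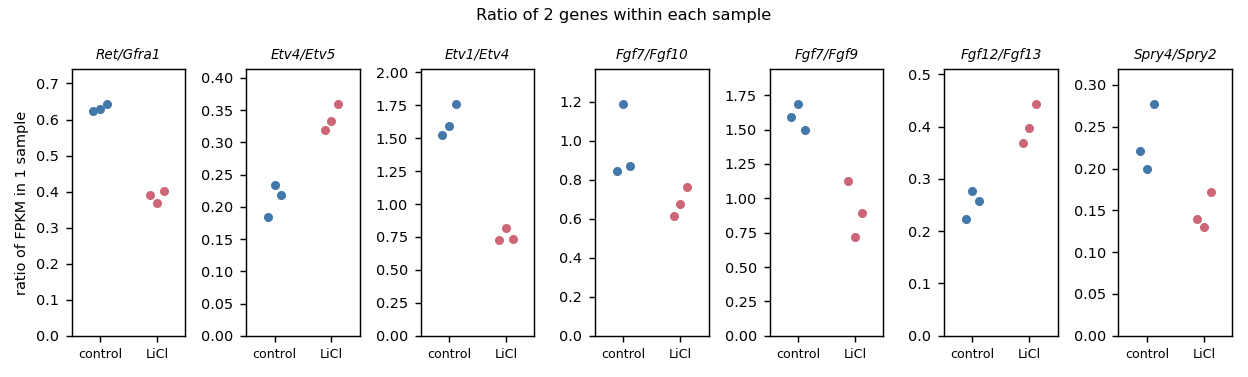
Ratio of the FPKM of 2 genes (vertical axis, no unit, from 0) in each of the 3 control (blue) and 3 LiCl (red) samples. In all 7 pairs the LiCl samples lie outside the range of the controls, below it for *Ret*/*Gfra1* and above it for *Etv4*/*Etv5*.

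**Figure D4:**
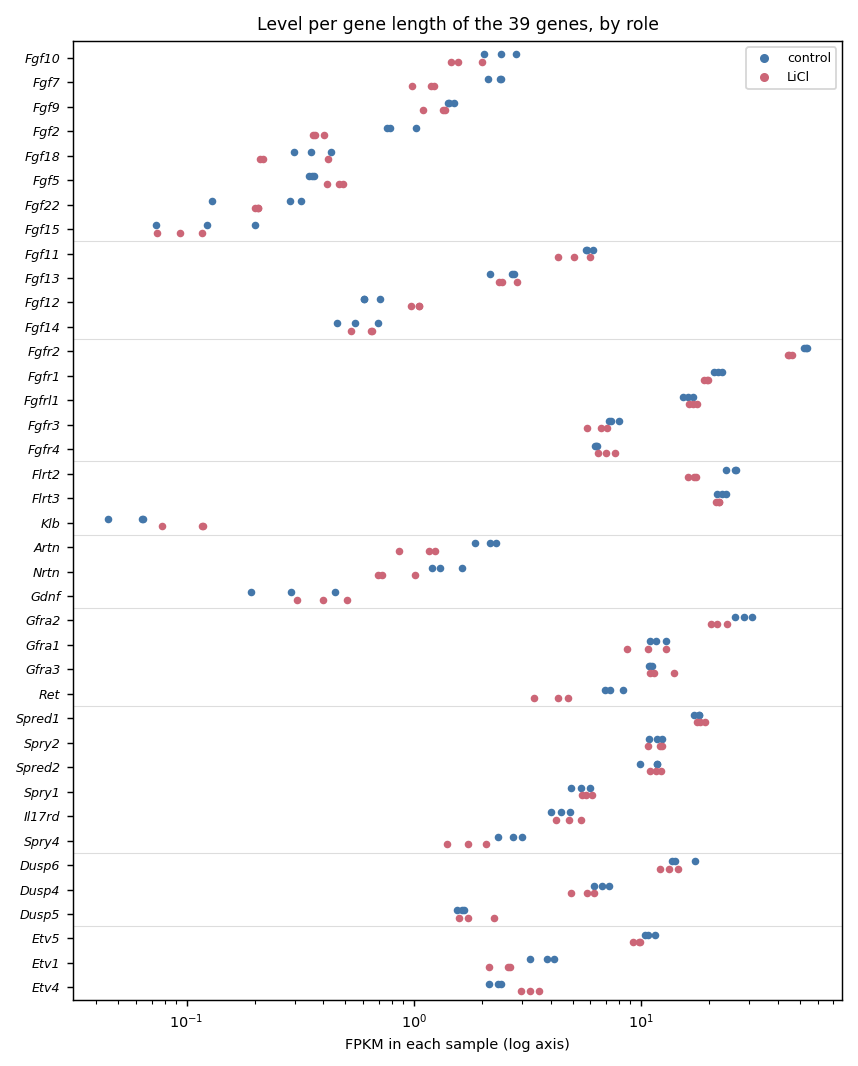
FPKM of the 39 genes (horizontal log axis) in each control (blue) and LiCl (red) sample, ordered within each role by the control mean. *Fgfr2* has the highest level, at 45 to 54 FPKM, and the secreted ligand genes lie between 0.07 and 2.83 FPKM.

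The wider pathway was described with lists of genes that are not part of the group. Of 8 tested further genes of the FGF and GDNF families, 6 fell and 1 rose, against 22.4% lower and 21.1% higher over all tested genes. The 6 became 3 without LiCl replicate 3 or with Y-linked expression as covariate. *Flrt1*, a relative of *Flrt2*, fell from 15.5 ± 3.23 to 6.54 ± 0.71 CPM, *Pspn*, the gene for persephin, from 0.53 ± 0.14 to 0.22 ± 0.01 CPM, and *Kl*, encoding the co-receptor for FGF23, from 1.39 ± 0.40 to 0.59 ± 0.25 CPM (each SD, n = 3), with edgeR adjusted p-values of 0.00032, 0.019 and 0.021. *Pspn* had 12 to 21 counts in the controls and 6 to 7 with LiCl, and so reached 10 counts through the controls alone. *Gdf15*, encoding the ligand of the RET co-receptor GFRAL, rose from 0.40 ± 0.29 to 1.5 ± 0.21 CPM (each SD, n = 3; edgeR adjusted p = 0.0085). *Gfra4*, the co-receptor gene for persephin, fell by 0.71 on the log2 scale.

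Genes of the cascade itself passed the test at shares read against 21.1% higher and 22.4% lower over all tested genes. Of 20 adaptor genes between receptor and RAS, 3 rose (15.0%) and 5 fell (25.0%), with a median log2 fold change of -0.04, and of 20 genes for RAS, RAF, MEK, ERK and their regulators, 4 rose (20.0%) and 7 fell (35.0%), with a median of -0.02; the 7 became 3 without control replicate 3, 3 without LiCl replicate 3 and 4 without LiCl replicate 2. The 3 adaptor genes that rose became 1 without LiCl replicate 3. Of 18 further ERK feedback and output genes, 5 rose (27.8%) and 7 fell (38.9%), with a median of -0.11. *Dusp10*, encoding a phosphatase of the stress kinases p38 and JNK, fell from 9.85 ± 2.42 to 2.97 ± 0.41 CPM, and *Egr1*, an immediate early gene, from 55.9 ± 5.67 to 25.0 ± 2.97 CPM (each SD, n = 3), with log2 fold changes of -1.73 and -1.16 (edgeR adjusted p = 0.00014 and 2.5e-05). The genes that rose were *Lgals3* by 0.91, *Sh3bp4* by 0.74, *Epha4* by 0.33, *Dusp2* by 0.32 and *Spred3* by 0.31 on the log2 scale. Among 20 genes of other receptor tyrosine kinases and their ligands, 1 rose and 10 fell, with a median of -0.19. The EGF receptor gene *Egfr* fell from 84.7 ± 10.2 to 35.4 ± 2.57 CPM, and *Btc*, encoding its ligand betacellulin, from 13.4 ± 1.41 to 5.67 ± 0.29 CPM (each SD, n = 3), with log2 fold changes of -1.26 and -1.24 (edgeR adjusted p = 1e-05 and 3.7e-05).

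Exons of 12 of the 47 genes overlap another gene in GENCODE vM21, made for GRCm38, in 11 cases on the opposite strand. Libraries were stranded, but the strand setting of the counting is not given in the sources used here. *Fgf2* overlaps *Nudt6* on the opposite strand, which had 24 to 42 counts in the controls and 14 to 29 with LiCl, fewer than *Fgf2* in every sample, and *Fgfr3* overlaps *G630022F23Rik*, with 12 to 34 and 8 to 9 counts. *Fgfr2* overlaps *Ctbp2* on the same strand, with 3217 to 3452 counts in the controls and 3390 to 3711 with LiCl. A strand setting would not separate these genes, and the part of the overlap in the *Fgfr2* values was not tested.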

How the data were processed

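RNA of 3 LiCl-treated and 3 control explant samples was sequenced as stranded, poly-A enriched, paired-end libraries. The authors deposited raw counts per gene without normalization. The methods of the study name HISAT2 on GRCm39 and featureCounts, whereas the processing notes of the submitters list fastp 0.23, STAR 2.7, featureCounts 2.0 and DESeq2 1.40 without roles. The annotation release and strand setting are not given in the sources used here. The authors also deposited FPKM values, which carry the counts divided by DESeq2 size factors and a gene length that was whole within 0.05 in 100% of 13480 genes with more than 50 counts in every sample.

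The main test was the quasi-likelihood F test of edgeR 4.0.16 (R 4.3.3) after filterByExpr and TMM scaling, with Benjamini-Hochberg adjustment over 18188 genes. The standard error is the log2 fold change divided by the square root of F. CPM used the TMM factors of this fit. "Rose" and "fell" mean an adjusted p under 0.05. A log2 fold change beyond 1 or -1 is the additional threshold of the study. FPKM served for levels between genes, for the ratios within a sample and for the limma settings. Symbols came from GENCODE vM21 (52073 of 56748 identifiers). *Spry3* of the pathway lists had no identifier there. Promoters are from RefSeq, GRCm38.p6. Per-sample values are given for genes past both thresholds and for a fixed set of central genes, and for others that passed or lay near a limit. The members, lists and named genes were chosen with earlier results of these data known. P-values measure the spread between samples whose independence the labels do not state.

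Alternatives were RLE, library size only, DESeq2 1.42.0, 3 filters, the replicate number as a block, Y-linked expression as a covariate, limma 3.58.1 on log2 FPKM with a pseudocount of 1 or 0.1, each sample left out, and LiCl replicates 1 and 3 left out together, where the remaining LiCl sample is assumed to vary like the controls. On simulated counts for LiCl against control, edgeR recovered 100% of 200 changed genes among 18348 tested, with 0 false calls, and called 1 gene when nothing was changed. These values stand for the 200 genes together. Recovery at the folds seen in the genes of the group was not tested, and the same holds for false calls at such folds. These folds include the 1.19-fold of *Fgfr2* and the 2.31-fold of *Fgf2*, the largest in the group. The values from simulated counts thus do not cover the calls reported for the group.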

Additional observations from a re-analysis of the deposited data

How the results depend on the processing

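The 18 alternative settings gave 686 values for the 39 genes, of which 637 stayed on their side of the threshold, 41 lost and 8 gained an adjusted p under 0.05, while 0 called values changed sign. Of the 16 genes that passed, 9 did so in all 18 settings (*Fgf2*, *Fgf7*, *Fgfr2*, *Flrt2*, *Artn*, *Ret*, *Gfra2*, *Etv1* and *Etv4*). *Fgfr3*, *Etv5*, *Nrtn* and *Fgf10* passed in 7, 7, 9 and 12. The number of genes lower, 14, was 11 with DESeq2, 11 with Y-linked expression as covariate and 9 with limma on log2(FPKM + 1) without filter. It was 9 to 13 with each sample left out, the lowest without control replicate 3. The 4 Y-linked genes summed to 109 CPM in control replicate 1 and to 180 to 247 CPM in the other samples. The number of genes lower past the fold change minimum, 2, was 1 with Y-linked expression as covariate, 0 with each of the 3 limma settings on FPKM, where the pseudocount shrinks the estimates of low genes by construction, and 1 to 3 with each sample left out, the lowest without LiCl replicate 2. The number higher past this minimum, 0, was 1 without filter (*Fgf8*). The number higher, 2, was 2 or 3 in every setting with more than 1 LiCl sample, each time with *Fgf12* and *Etv4* among them. The causes of the other shifts were not tested.

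Whether shared replicate numbers mark paired samples is not stated in the labels. The deviations from the group mean had correlations of -0.01, -0.18 and 0.13 for the numbers 1, 2 and 3. With 3 samples per group these values cannot exclude a pairing. With the replicate block, 2 genes were higher and 13 lower. In the pathway lists, the counts moved most for RAS, RAF, MEK and ERK, where 4 higher and 7 lower became 2 and 4 with the replicate block, 1 and 3 without control replicate 3, and 2 and 1 without LiCl replicates 1 and 3, a fit with 1 LiCl sample whose calls over all genes also fell, from 3844 higher and 4071 lower to 2014 and 2117. The 6 further FGF and GDNF family genes that were lower became 3 with the Y-linked covariate or without LiCl replicate 3, the 3 adaptor genes that were higher became 1 without LiCl replicate 3, and the 10 ureteric bud genes that were lower became 6 without LiCl replicate 3. *Klb*, with 6 to 15 counts per sample, lay close to the minimum of 10 counts.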

Other observations

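Genes that act downstream of RET or regulate *Gdnf* and *Ret* in the kidney were read as a further list. Of 24 genes, all tested, 4 rose and 10 fell, at a median of -0.12 on the log2 scale, that is 16.7% and 41.7% against 21.1% and 22.4% of all tested genes. The 10 became 6 without LiCl replicate 3 and the 4 became 2 without LiCl replicate 2. *Wnt11*, encoding a WNT ligand of the ureteric bud tip, fell by 0.70 on the log2 scale (edgeR adjusted p = 0.00035), and *Slit2*, encoding a secreted ligand whose loss expands the *Gdnf* domain, fell by 0.64. *Hoxa11*, *Eya1* and *Sall4* fell by 0.67, 0.36 and 0.55. *Myb*, a TF gene of proliferating cells, rose from 3.10 ± 0.37 to 6.71 ± 0.90 CPM (each SD, n = 3; edgeR adjusted p = 0.00042), and *Grem1*, encoding a BMP antagonist, rose by 0.72. *Pax2*, *Emx2*, *Sall1* and *Osr1* did not pass the test, with log2 fold changes of -0.14, 0.06, 0.00 and -0.07.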
